A study of Arabidopsis thaliana with 28 samples.

Results

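The genes described are 7 members of 1 peptide hormone pathway of the Arabidopsis root: the precursor genes RGF1 (AT5G60810), RGF2 (AT1G13620) and RGF3 (AT2G04025), the receptor kinase genes RGFR1 (AT4G26540), RGFR2 (AT3G24240) and RGFR3 (AT5G48940), and TPST (AT1G08030), which encodes the tyrosylprotein sulfotransferase. They were chosen by name from a table of 33201 genes, by a rule that uses no measured value, with earlier results of these data known, and each of the 7 passed the filter on low values. The 28 RNA-Seq samples came from root tips of 5-day-old Col-0 seedlings, each sample from many seedlings, whose cells were protoplasted and sorted by fluorescence. Fluorescent cells came from 7 marker lines: AGL42:GFP for the stem cell niche (SCN, n = 4), CYCD6:GFP for the cortex endodermis initials (CEI, n = 3), CVP2:NLS:VENUS for the protophloem (Protophlo, n = 4), FEZ:FEZ:GFP for the initials of epidermis and lateral root cap (Epi/LRC, n = 3), J2341:GFP for the columella stem cells (CSCs, n = 3), TMO5:3xGFP for the xylem stem cells (Xyl, n = 4) and WOX5:GFP for the quiescent center (QC, n = 3). The non-stem cells (NSCs, n = 4) were the meristem cells of the AGL42:GFP line without fluorescence. Each population is therefore what its reporter marks. J2341 is an enhancer trap, FEZ:FEZ:GFP is a fusion to the FEZ protein, and the SCN reporter covers several of the other populations.

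RGF peptides, also called GOLVEN or CLE-like peptides, are secreted hormones that maintain the root stem cell niche. A precursor protein is cut down to a short peptide from its C-terminal end, and TPST sulfates a tyrosine that follows an aspartate in that peptide, a step that the peptide needs for full activity. The peptide binds leucine-rich repeat receptor kinases, the RGFRs, which act with co-receptors of the SERK family and signal through a MAP kinase cascade to raise the level of the PLETHORA transcription factors PLT1 and PLT2.

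The part of each precursor gene that encodes the mature peptide is shown because it holds the site on which TPST acts. The sequences run 5′ to 3′ on the coding strand from the Asp-Tyr pair, in capitals, to the stop codon, and were read from the TAIR10.1 RefSeq genome and annotation. In the 3 members the pair is followed by 11 codons and the stop. RGF8 (AT2G03830), the other family gene with the largest difference from NSCs, is shown beside them.
RGF1, chr5:24466531-24466572, minus strand: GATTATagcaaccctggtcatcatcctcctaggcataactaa
RGF2, chr1:4669184-4669225, plus strand: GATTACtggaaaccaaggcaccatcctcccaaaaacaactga
RGF3, chr2:1276899-1276940, minus strand: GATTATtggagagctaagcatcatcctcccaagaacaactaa
RGF8, chr2:1172085-1172147, plus strand: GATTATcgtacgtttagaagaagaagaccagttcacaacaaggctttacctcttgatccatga
The Asp-Tyr codons were found at the end of 10 of the 11 family genes that the annotation names. Over the whole coding sequence RGF2 and RGF3 were the most alike, with 66.0% identical bases, against 52.8% for RGF1 with RGF2 and 54.3% for RGF1 with RGF3. The longest run of identical bases shared by any pair of these coding sequences, at any position in each, was 14 bases, between RGF2 and RGF3.

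The receptors carry an Arg-x-Gly-Gly stretch in the extracellular domain that is known to contact the sulfate group of the peptide. Its codons are in capitals, with 9 bases on either side.
RGFR1, chr4:13397426-13397455, minus strand, from codon 195: caagtcttaCGTGCTGGTGGGaacaagaat
RGFR2, chr3:8781160-8781189, plus strand, from codon 207: gaagtaataAGAATAGGAGGAaacaaagaa
RGFR3, chr5:19840397-19840426, plus strand, from codon 208: gagagcataAGAGCCGGAGGAaactcagag
RGFR2 and RGFR3 were the most alike of the receptors, with 63.6% identical coding bases, and RGFR1 had 56.0% with RGFR2 and 55.7% with RGFR3. The longest identical run between receptors was 22 bases.
In the annotation RGFR1 (chr4:13394447-13398307, minus strand, 2 exons) is overlapped over 2764 bases by AT4G26542, a long non-coding RNA gene on the opposite strand. No source states that reads were counted by strand, so reads of this pair cannot be told apart and each RGFR1 value is uncertain in that respect. RGF2 shares 47 bases with AT1G13630 on the opposite strand. The other members overlap no annotated gene.

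Values are FPKM, fragments scaled to transcript length and to mapped reads, so levels can be compared between genes. The FPKM of a sample summed to between 731192 and 935653, and 13643 to 18778 genes had an FPKM of at least 1. No counts were used, and the depth of the libraries is unknown. Of 1180 genes with a median FPKM above 100, 19 were listed at 0 in at least 1 sample, so a member listed at 0 may be a failed estimate. The gene of the reporter was high in the sorted cells for WOX5 in the QC (127 to 264 FPKM), TMO5 in Xyl (851 to 1340) and FEZ in Epi/LRC (72.3 to 262). FEZ did not separate Epi/LRC from CSCs, where it was at 55.9 to 109 FPKM, and it was at 10.3 to 43.9 in the QC. CVP2 was at 0 to 5.22 FPKM in Protophlo against 10.5 to 26.5 in Xyl, and CYCD6;1 was at 1.48 to 22.7 in the CEI against 6.30 to 24.0 in CSCs, so these labels are not borne out by their own reporter genes. The root hair genes COBL9 and EXPA7 were high in the 4 Protophlo samples (69.8 to 254 and 238 to 552 FPKM) and in SCN replicates 1 (451 and 172) and 4 (125 and 235) and CEI replicate 3 (136 and 160). QC replicate 2 had COBL9 at 265 FPKM and EXPA7 at 11.9. Both genes were at 0.182 to 0.654 FPKM in CSCs. Over 7 markers of differentiated cells (CASP1, MYB36, COBL9, EXPA7, GL2, APL and VND7) the summed FPKM was 595 to 969 in NSCs, 328 to 3682 in Protophlo, 3.58 to 634 in the SCN, 179 to 1145 in the CEI, 5.79 to 292 in Epi/LRC, 11.9 to 295 in Xyl, 20.9 to 318 in the QC and 0.718 to 1.47 in CSCs, where CASP1 and APL were listed at 0 in each sample. The root cap genes SMB, BRN1 and BRN2 summed to 301 to 582 in NSCs and to 0.394 to 268 in the other populations. That order came from BRN1 and BRN2, since SMB was at 16.3 to 27.9 in NSCs and higher in every Epi/LRC (49.2 to 133) and CSCs (29.0 to 76.6) sample. The part of such cells in the differences from NSCs was not tested. In these sorted samples, fewer cells of a type and less RNA per cell cannot be told apart.

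A gene was called at a Benjamini-Hochberg adjusted p under 0.06 and a fold-change above 2 in limma, fitted to log2(FPKM + 1) of 22694 genes over the 28 samples. The labels describe the replicates as biological, and p-values measure the spread between these samples. The 7 comparisons with NSCs share the same 4 NSC samples. The members were called in 16 of 49 combinations of gene and population, 13 higher and 3 lower than in NSCs. RGF1, RGF3, RGFR2, RGFR3 and TPST were higher in at least 1 population, RGF3 and RGFR1 were lower in at least 1, and RGF2 passed the threshold in none.

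**Figure D1:**
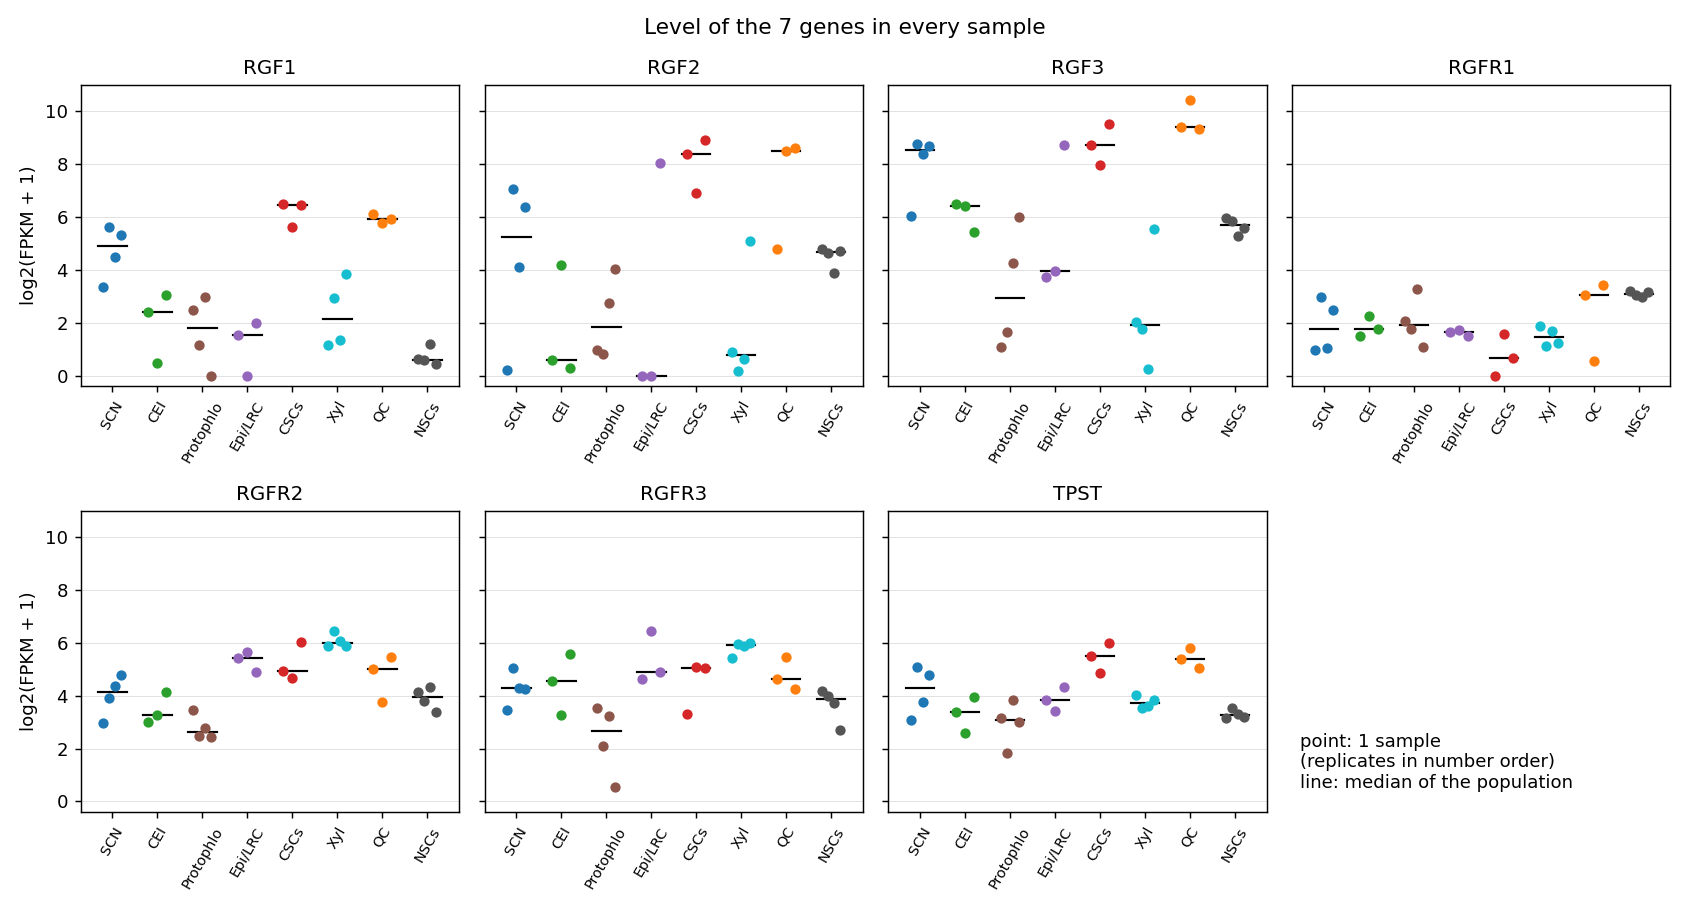
Level of each of the 7 genes, as log2(FPKM + 1), in every sample of the 8 populations, with 1 point per sample and a line at the population median. The CSCs and QC samples lie at the top for RGF1 (48.6 to 89.1 FPKM). For TPST they lie at 27.9 to 63.2 FPKM, with 1 SCN sample at 32.7 among them, and for RGFR2 the Xyl samples lie at 57.6 to 85.6, with 1 CSCs sample at 64.8 among them.

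The peptide genes and TPST had their highest mean levels in CSCs and the QC. Against NSCs, 4 of the 7 members were higher and 1 was lower in CSCs, where 22.6% of the tested genes were higher and 18.3% lower. In the QC 3 of 7 were higher and 0 lower, against 9.31% and 9.49% of the tested genes. In the SCN 1 of 7 was higher and 0 lower, against 5.52% and 8.89%. The receptor genes RGFR2 and RGFR3 had their highest means in Xyl, where 3 of 7 members were higher and 2 lower, against 20.0% and 23.5% of the tested genes. In Epi/LRC 2 of 7 were higher and 0 lower, against 12.5% and 16.6%. No member was called in the CEI or Protophlo, where 5.37% and 3.51% of the tested genes were higher and 5.04% and 10.5% were lower. These shares depend on single samples. Without CEI replicate 1, 2 or 3 or NSCs replicate 4, the 1219 genes higher in the CEI became 251, 2289, 223 or 529 and the 1144 lower became 483, 1950, 251 or 728. The 1252 higher in the SCN became 2150, 704 or 549 without SCN replicate 1 or 2 or NSCs replicate 4. Those higher in the QC went from 2113 to 1271 without QC replicate 3 and to 1129 without NSCs replicate 4, those lower in the QC from 2154 to 1353 without QC replicate 3, those higher in Epi/LRC from 2830 to 1778 without Epi/LRC replicate 2, and those higher in Protophlo from 797 to 499, 492 or 507 without NSCs replicate 2, 3 or 4.

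RGF1, the founding peptide gene of the family, was the member with the widest contrast to NSCs. In NSCs it was at 0.546, 0.499, 1.29 and 0.362 FPKM. In CSCs it was at 89.1, 48.6 and 85.8 FPKM and in the QC at 68.9, 53.8 and 59.9. These 6 samples lay above each of the other 22, although the highest SCN sample came close. The SCN samples were at 9.20, 48.2, 21.4 and 39.3 FPKM and also lay above every NSC sample. The lowest of them, replicate 1, had the highest COBL9 of the 28 samples, whose part in its value was not tested. In the remaining stem cell types RGF1 was low. The CEI samples were at 4.31, 0.399 and 7.28 FPKM and the Xyl samples at 1.24, 6.63, 1.54 and 13.5. The Protophlo samples were at 4.62, 1.21 and 6.81 with replicate 4 listed at 0, and the Epi/LRC samples at 1.93 and 2.97 with replicate 2 listed at 0. RGF1 thus ran in order from CSCs to QC, SCN, Xyl, CEI, Protophlo, Epi/LRC and NSCs. Of the 7 gaps between neighbours in that order, those from the QC to the SCN and from the SCN to Xyl were larger than the SD of both neighbours.

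Against NSCs, RGF1 was higher by 5.47 ± 0.74 on the log2 scale in CSCs (SE, adjusted p = 4.93e-06, limma). It was higher by 5.23 ± 0.74 in the QC (adjusted p = 2.43e-05, limma) and by 3.98 ± 0.69 in the SCN (adjusted p = 0.000299, limma). These 3 calls stood in every alternative tried. The difference in Xyl, 1.61 ± 0.69, passed narrowly (adjusted p = 0.0591, limma), and the Xyl and NSC samples overlapped. That call was lost in 6 of 8 other settings and in 18 of 28 fits that left out 1 sample, with an adjusted p of 0.140 without Xyl replicate 2, 0.238 without Xyl replicate 4, 0.10, 0.103, 0.0633 and 0.116 without NSCs replicates 1 to 4, and 0.06 to 0.066 without 1 of 12 samples of the other populations.

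RGF3 had the highest FPKM of the 3 peptide genes in each SCN, CEI, Epi/LRC, CSCs, QC and NSC sample. RGF1 was above it in Protophlo replicate 1 and Xyl replicates 2 and 3. RGF3 held 59.1% to 87.6% of their summed FPKM in the QC and 64.4% to 71.8% in NSCs. Its share was 82.6% to 94.9% in the CEI, 70.5% to 89.8% in the SCN and 50.0% to 59.9% in CSCs. The QC samples were at 672, 1380 and 646 FPKM and the CSCs samples at 420, 251 and 741. The SCN samples were at 64.6, 433, 331 and 417 FPKM, with replicate 1 again the lowest. NSCs were intermediate at 61.4, 56.6, 38.2 and 46.8 FPKM. The CEI samples, at 89.5, 84.0 and 42.6, overlapped them. RGF3 had its lowest means in Xyl and Protophlo. The Xyl samples were at 3.13, 2.39, 0.193 and 46.4 FPKM and the Protophlo samples at 1.11, 2.1, 18.2 and 63.6. Epi/LRC was split, with replicates 1 and 2 at 12.2 and 14.7 FPKM and replicate 3 at 426. In the order QC, CSCs, SCN, Epi/LRC, CEI, NSCs, Protophlo and Xyl, the gap from the QC to CSCs and that from NSCs to Protophlo exceeded the SD of both neighbours. The former difference did not pass the test (adjusted p = 0.686, limma).

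RGF3 was higher than in NSCs by 4.05 ± 1.14 in the QC (log2, SE, adjusted p = 0.0157, limma) and by 3.07 ± 1.14 in CSCs (adjusted p = 0.0334, limma). In Xyl it was lower by -3.26 ± 1.06 (adjusted p = 0.0137, limma), with the samples overlapping through Xyl replicate 4. In the SCN every sample was above every NSC sample, with a difference of 2.30 ± 1.06 that did not pass (adjusted p = 0.155, limma). The QC call was lost without QC replicate 2 (adjusted p = 0.0658), the sample with the highest RGF3 and with COBL9 at 265 FPKM, above the other QC samples, whose part in the result was not tested, and the Xyl call without Xyl replicate 3 (0.0683). The CSCs call was lost without CSCs replicate 1 (0.0727) or 3 (0.117) or NSCs replicate 3 (0.0653) or 4 (0.0616), and with size factors (0.0857), a pseudocount of 0.1 (0.0695) or no filter (0.0613). Without Protophlo replicate 4, RGF3 was lower in Protophlo by -3.35 (0.0343). That sample had CASP1 at 3040 FPKM and MYB36 at 36.2, against 2.36 to 6.55 and 0.425 to 2.65 in the other Protophlo samples. The part of such cells in its RGF3 was not tested.

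RGF2 varied widely between replicates, and its differences from NSCs did not pass the test. The CSCs samples were at 331, 119 and 482 FPKM, above every NSC sample (26.6, 23.9, 13.7 and 25.5). In the QC replicates 2 and 3 were at 358 and 388 FPKM and replicate 1 at 26.5. The SCN samples ran from 0.171 in replicate 1 to 133, 16.2 and 82.6. Each of these populations except CSCs thus overlapped NSCs. Epi/LRC was again split, with replicates 1 and 2 listed at 0 and replicate 3 at 261 FPKM. The CEI samples were at 0.505, 17.3 and 0.235 FPKM. In Protophlo RGF2 was at 0.941, 0.763, 5.76 and 15.6, and in Xyl at 0.852, 0.124, 0.560 and 32.8. None of the 7 neighbour gaps in the order of the means exceeded the SD of both populations.

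RGF2 differed from NSCs by 3.56 ± 1.65 in CSCs (log2, SE, adjusted p = 0.0873, limma), -2.81 ± 1.53 in Xyl (adjusted p = 0.140), -2.81 ± 1.65 in the CEI (adjusted p = 0.320) and 2.78 ± 1.65 in the QC (adjusted p = 0.254). The SE of RGF2 in these comparisons was above that of RGF1 (1.65 against 0.74 in CSCs). Fitted with NSCs alone, RGF2 passed in CSCs (adjusted p = 0.00101) and the QC (0.0514) as higher and in Xyl (0.0399) and Protophlo (0.0448) as lower. Without Epi/LRC replicate 3 it passed as higher in CSCs (0.0359) and as lower in Epi/LRC (-4.51, 0.0286), and without Xyl replicate 4 as lower in Xyl (-3.94, 0.0493).

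RGF2 and RGF3 were both far above the other replicates in Epi/LRC replicate 3 and Xyl replicate 4. This did not hold in every population, since QC replicate 3 had the highest RGF2 of the QC (388 FPKM) and the lowest RGF3 (646). Over the 28 samples, on log2(FPKM + 1), Pearson's r of RGF2 and RGF3 was 0.82 and Spearman's rho 0.78. It was 0.80 without the 2 samples farthest from the RGF2 median, and 0.84 after the mean of each population was subtracted. In Epi/LRC replicate 3 the root cap gene SMB was at 133 FPKM (74.6 and 49.2 in replicates 1 and 2) and PLT1 at 63.0 (10.1 and 7.0). EXPA7 was at 161 (1.07 and 0.113) and COBL9 at 130 (70.5 and 0.0483). BRN1 and BRN2, also root cap genes, were not highest there, at 29.1 (47.0 and 0) and 25.0 (51.0 and 0.110). CASP1, MYB36 and APL were listed at 0, GL2 was at 0.0218 and VND7 at 0.554. The reporter gene FEZ was at 262 (107 and 72.3). Whether other cells in that sample bear on its RGF2 and RGF3 was not tested. In Xyl replicate 4, TMO5 was at 1340 FPKM, the highest of the 4 samples, while COBL9 and EXPA7 were lowest there, at 0.0770 and listed at 0. CASP1, MYB36, APL and VND7 were not lowest there, since each was lower in Xyl replicate 3. GL2 was listed at 0 in Xyl replicates 2 and 4. SMB, BRN1 and BRN2 were neither highest nor lowest in replicate 4, and FEZ was highest there. The part of other cells in the RGF2 and RGF3 of Xyl replicate 4 was not tested.

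**Figure D2:**
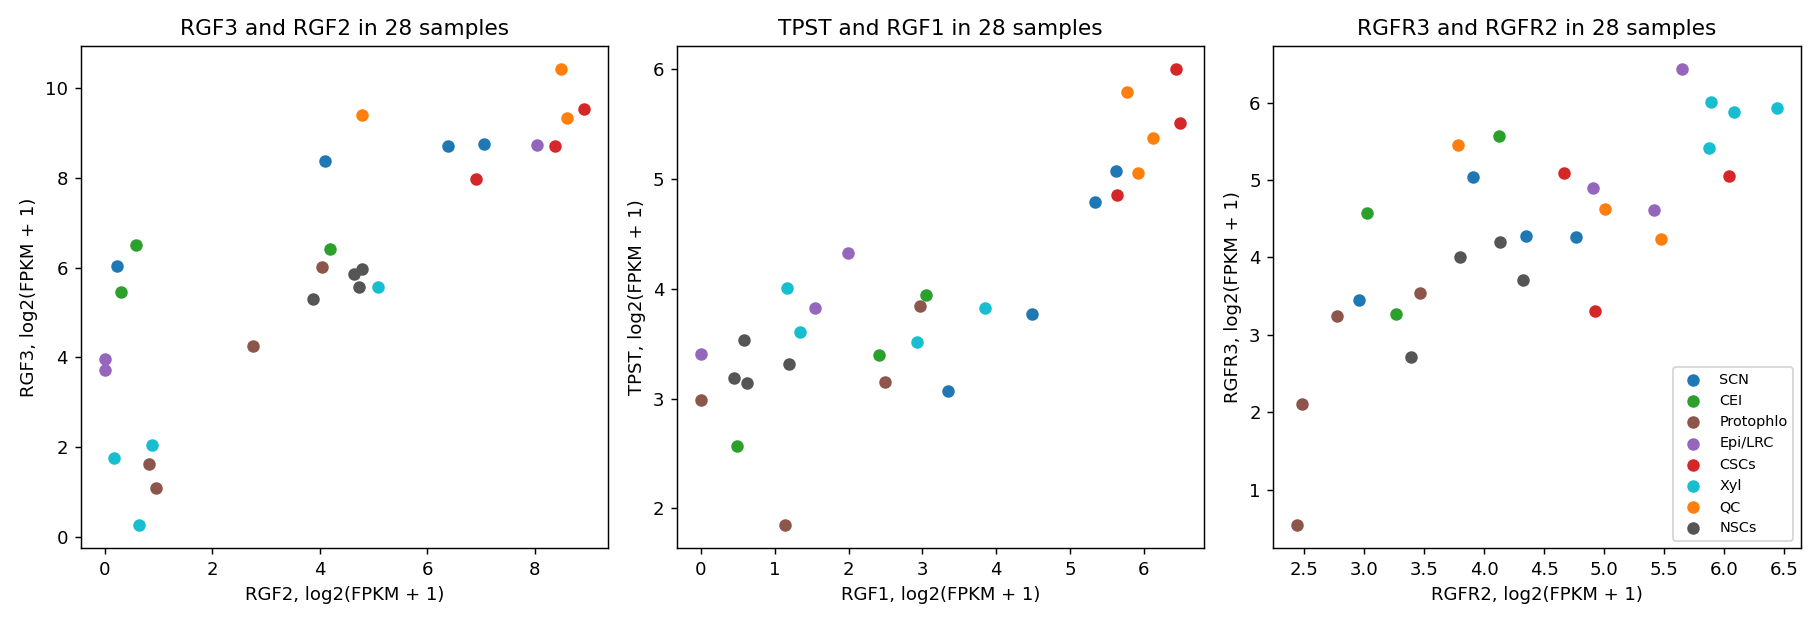
RGF3 against RGF2, TPST against RGF1 and RGFR3 against RGFR2, each on log2(FPKM + 1), with 1 point per sample coloured by population. Pearson's r over the 28 samples was 0.82, 0.84 and 0.75, and 0.84, 0.63 and 0.37 after the mean of each population was subtracted.

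TPST, whose enzyme sulfates the RGF, PSK and PSY peptides, was expressed in every sample, from 2.60 to 63.2 FPKM. In NSCs it was at 7.84, 10.6, 8.96 and 8.12 FPKM. The CSCs samples were at 44.7, 27.9 and 63.2 and the QC samples at 40.4, 54.4 and 32.3, above every NSC sample. The SCN samples, at 7.38, 32.7, 12.7 and 26.7, overlapped NSCs through replicate 1. The other stem cell types did not pass the test against NSCs. Epi/LRC was at 13.2, 9.63 and 19.0 FPKM, and Xyl at 15.1, 10.5, 11.2 and 13.2. The CEI was at 9.54, 4.95 and 14.4, and Protophlo at 7.87, 2.60, 13.4 and 6.94. In the order CSCs, QC, SCN, Epi/LRC, Xyl, CEI, NSCs and Protophlo, the gap from the QC to the SCN was the 1 of 7 that exceeded the SD of both neighbours.

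TPST was higher than in NSCs by 2.16 ± 0.47 in CSCs (log2, SE, adjusted p = 0.000835, limma) and by 2.11 ± 0.47 in the QC (adjusted p = 0.00330, limma), and both calls stood in every alternative. Without SCN replicate 1 it also passed in the SCN (1.25, adjusted p = 0.0482). Over the 28 samples TPST followed RGF1 with Pearson's r of 0.84 and Spearman's rho of 0.79 on log2(FPKM + 1), 0.80 without the 2 samples farthest from the RGF1 median and 0.63 within populations. Its r with RGF2 and RGF3 was 0.70 in both cases, and 0.45 and 0.46 within populations. These values describe samples that share their population and library, and are not tests.

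RGFR1 was low, from 0 to 9.91 FPKM, and had its highest mean in NSCs. The NSC samples were at 8.16, 7.31, 6.87 and 7.91 FPKM. The CSCs samples were at 1.99 and 0.601 with replicate 1 listed at 0, and the Xyl samples at 2.69, 1.18, 2.24 and 1.38. Both populations lay below every NSC sample, as did Epi/LRC (1.80 to 2.33) and the CEI (1.84 to 3.81). In the QC replicates 1 and 3 were at 7.20 and 9.91 FPKM and replicate 2 at 0.460. The SCN ran from 0.964 to 6.93 and Protophlo from 1.12 to 8.64. RGFR1 was lower than in NSCs by -2.34 ± 0.63 in CSCs (log2, SE, adjusted p = 0.00439, limma) and by -1.61 ± 0.58 in Xyl (adjusted p = 0.0261, limma). The Xyl call was lost without Xyl replicate 2 (0.0657) or 4 (0.0628) and with a pseudocount of 0.1 (0.0843). In Epi/LRC the difference of -1.47 ± 0.63 (adjusted p = 0.0817, limma) passed without QC replicate 2 (0.0438), with size factors (0.0372) and against NSCs alone (0.0113). The overlapping AT4G26542 had the same order at its ends, with 28.3 to 32.4 FPKM in NSCs and 0 to 7.33 in CSCs, and Pearson's r of 0.91 with RGFR1 over the 28 samples. How many reads of either gene belong to the other was not tested.

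RGFR2 had its highest mean in Xyl, with samples at 57.6, 85.6, 66.8 and 58.4 FPKM. The Epi/LRC samples were at 41.6, 49.1 and 29.1 and the CSCs samples at 29.3, 24.4 and 64.8. These 3 populations lay above every NSC sample (16.5, 12.9, 19.0 and 9.48). The QC, at 31.2, 12.7 and 43.4 FPKM, the SCN, at 6.76 to 26.2, and the CEI, at 7.12, 8.59 and 16.4, overlapped NSCs. Protophlo had the lowest mean, with samples at 10.1, 4.58, 5.86 and 4.44. In the order Xyl, Epi/LRC, CSCs, QC, SCN, NSCs, CEI and Protophlo, the first gap was the 1 of 7 that exceeded both SDs. RGFR2 was higher than in NSCs by 2.16 ± 0.42 in Xyl (log2, SE, adjusted p = 0.000196, limma), by 1.41 ± 0.45 in Epi/LRC (adjusted p = 0.0211) and by 1.30 ± 0.45 in CSCs (adjusted p = 0.0237). The Xyl call stood in every alternative. The Epi/LRC call was lost without Epi/LRC replicate 1 (0.0613) or 2 (0.0941) or NSCs replicate 4 (0.0694). The CSCs call was lost without CSCs replicate 3 (0.171) or NSCs replicate 4 (0.0744) and with size factors (0.169). In Protophlo the difference of -1.12 ± 0.42 (adjusted p = 0.0769) passed without SCN replicate 1 (0.0533), Protophlo replicate 1 (0.0504) or QC replicate 2 (0.0590).

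RGFR3 likewise had its highest mean in Xyl, with samples at 41.8, 60.3, 57.9 and 63.3 FPKM. In Epi/LRC replicate 2, at 85.8, stood above replicates 1 and 3, at 23.5 and 28.9. The CEI samples were at 22.8, 8.65 and 46.7, the CSCs samples at 8.92, 33.1 and 32.2, the QC samples at 23.7, 42.8 and 17.9, and the SCN samples at 9.88, 31.9, 18.4 and 18.3. NSCs were at 17.3, 15.1, 12.1 and 5.53 FPKM, and Xyl, Epi/LRC and the QC lay above them in every sample. Protophlo had the lowest mean, with samples at 10.6, 3.30, 8.48 and 0.451. RGFR3 was higher than in NSCs by 2.16 ± 0.59 in Xyl (log2, SE, adjusted p = 0.00459, limma), which stood in every alternative. The difference in Epi/LRC, 1.66 ± 0.64 (adjusted p = 0.0538), was lost in 5 of 8 other settings. It fell to 1.10 (0.297) without Epi/LRC replicate 2, and was also lost without Xyl replicate 2 (0.0610) or 3 (0.0618) or NSCs replicate 2 (0.0656), 3 (0.0831) or 4 (0.163). RGFR2 and RGFR3 had Pearson's r of 0.75 and Spearman's rho of 0.73 over the 28 samples, 0.70 without the 2 samples farthest from the RGFR2 median, and 0.37 within populations.

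**Figure D3:**
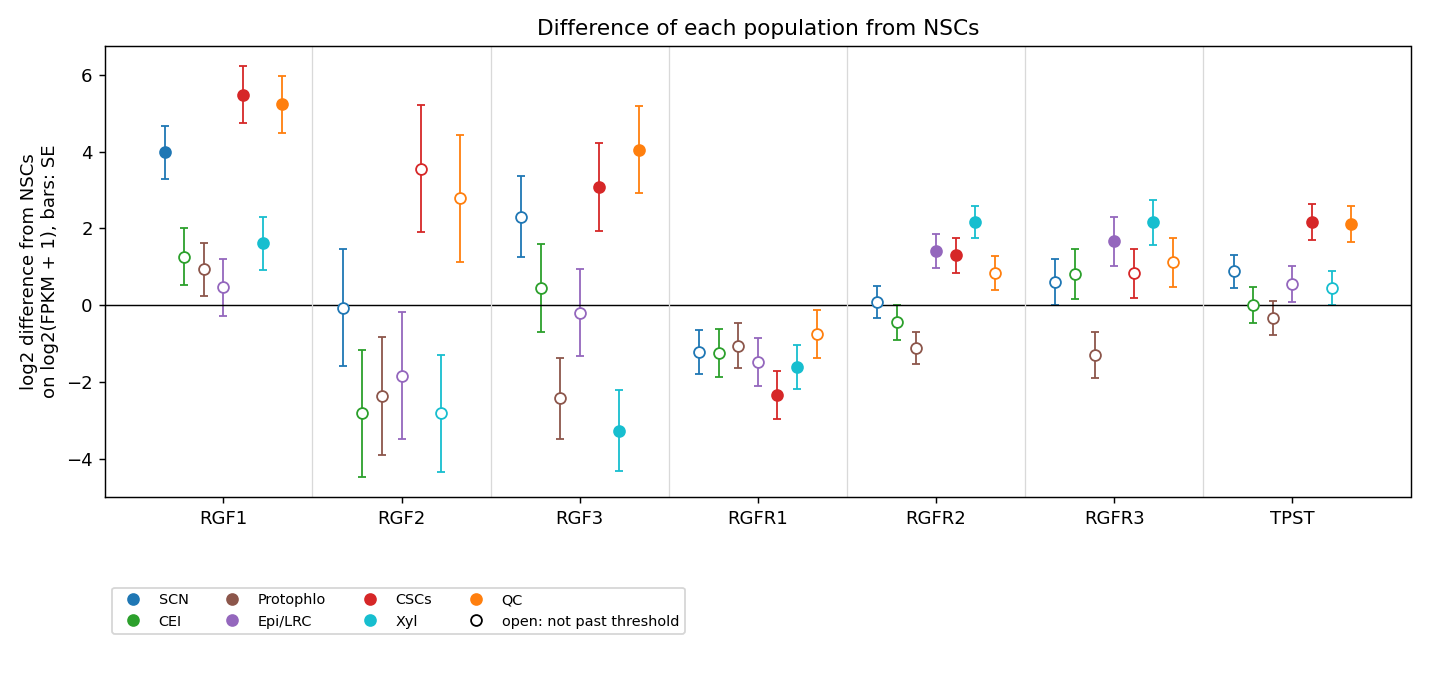
Difference of each stem cell population from NSCs for the 7 genes, on log2(FPKM + 1) with the SE from limma, filled where the gene passed the threshold. RGF1 rose by 5.47 in CSCs and 5.23 in the QC, while RGFR2 and RGFR3 rose by 2.16 in Xyl and RGFR1 lay below 0 in each population.

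Between the 6 stem cell types, 39 of 105 combinations of gene and pair passed the threshold in either direction. The share of tested genes called in a pair ranged from 1.64% (Epi/LRC against the QC) to 44.0% (Protophlo against Xyl). RGF1 and RGFR2 differed in 8 of 15 pairs, TPST in 7, RGF2 in 6, RGF3 and RGFR3 in 5 and RGFR1 in 0. In CSCs against the QC, RGFR1 differed by -1.59 ± 0.67 (unadjusted p = 0.0253, adjusted p = 0.159, limma). In that pair 0 of 7 members passed, while 7.74% of the tested genes did. There the differences of CSCs from the QC were 0.25 ± 0.79 for RGF1, 0.78 ± 1.76 for RGF2, -0.98 ± 1.22 for RGF3 and 0.05 ± 0.50 for TPST (log2, SE), which leaves room for differences of more than 2-fold in the peptide genes.

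Most members were lower in Protophlo than in CSCs and the QC. Between Protophlo and CSCs 6 of 7 members differed, each lower in Protophlo, and 43.7% of the tested genes differed in either direction. Between Protophlo and the QC 6 of 7 differed, again each lower in Protophlo, and 20.2% of the tested genes differed in either direction. RGFR1 was the exception in both. The differences from CSCs ranged from -2.13 ± 0.64 for RGFR3 (adjusted p = 0.00897, limma, with overlapping samples) to -5.92 ± 1.65 for RGF2 (adjusted p = 0.00503). Those from the QC ranged from -1.96 ± 0.45 for RGFR2 to -6.48 ± 1.14 for RGF3. The Protophlo samples are those with the low CVP2 and high root hair genes, and the part of these in the differences was not tested.

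Between Xyl and the QC, the peptide genes and RGFR2 differed in opposite directions. In that pair 5 of 7 members differed, against 17.8% of the tested genes. RGF1, RGF2, RGF3 and TPST were lower in Xyl by -3.62 ± 0.74, -5.60 ± 1.65, -7.31 ± 1.14 and -1.67 ± 0.47 (log2, SE, adjusted p = 0.00152, 0.0213, 8.3e-05 and 0.0171, limma), and RGFR2 was higher in Xyl by 1.32 ± 0.45 (adjusted p = 0.0461). Of these genes only RGF2 had overlapping samples, with Xyl replicate 4 at 32.8 FPKM above QC replicate 1 at 26.5. Between CSCs and Xyl, where 12.8% of the tested genes differed, 4 of 7 differed, namely the peptide genes and TPST, each higher in CSCs. Between the CEI and CSCs, with 14.1% of the tested genes, 4 of 7 differed: RGF1, RGF2, TPST and RGFR2, each lower in the CEI. The CEI differed from Epi/LRC in 1 of 7 members, RGFR2 (4.45% of the tested genes), and from the QC in 2 of 7, RGF1 and TPST (1.73%). In Epi/LRC against CSCs (10.1%) 3 of 7 differed, with RGF1, RGF2 and TPST lower in Epi/LRC, although the RGF2 samples overlapped. Between Epi/LRC and Xyl, where 9.79% of the tested genes differed, 0 of 7 did.

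The summed FPKM of RGF1, RGF2 and RGF3 was above that of RGFR1, RGFR2 and RGFR3 in each of the 3 CSCs, 3 QC, 4 SCN and 4 NSC samples and in 0 of 4 Xyl samples. The peptide genes summed to 767 to 1791 FPKM in the QC, 419 to 1309 in CSCs and 2.29 to 92.6 in Xyl. The receptors summed to 56.0 to 71.2 FPKM in the QC, 38.2 to 97.7 in CSCs and 102 to 147 in Xyl. RGFR1 made up 18.1% to 34.5% of the receptor sum in NSCs, 13.3% to 37.6% in Protophlo, 3.63% to 18.1% in the CEI, 2.76% to 13.1% in the SCN, 0.821% to 13.9% in the QC, 1.70% to 3.22% in Epi/LRC, 0.799% to 2.63% in Xyl and at most 3.34% in CSCs.

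Of the other 8 genes of the peptide family, 7 passed the filter. Against NSCs, 3 of 7 were higher and 1 lower in the SCN, 3 and 1 in the CEI, 0 and 2 in Protophlo, 1 and 2 in Epi/LRC, 3 and 2 in CSCs, 1 and 2 in Xyl, and 4 and 2 in the QC. Over all tested genes the shares higher and lower were 5.52% and 8.89% in the SCN, 5.37% and 5.04% in the CEI, 3.51% and 10.5% in Protophlo, 12.5% and 16.6% in Epi/LRC, 22.6% and 18.3% in CSCs, 20.0% and 23.5% in Xyl, and 9.31% and 9.49% in the QC, so the counts in Epi/LRC and Xyl were near the background. RGF8 was higher in 6 of the 7 populations. It was at 481, 233 and 529 FPKM in CSCs and at 307, 298 and 461 in the QC, against 0.801, 1.46, 0.838 and 0.163 in NSCs, with differences of 7.80 ± 0.58 and 7.64 ± 0.58 (log2, SE, adjusted p = 3.54e-10 and 7.80e-10, limma). RGF8 was also higher in the CEI (5.68 ± 0.58) and in Epi/LRC (4.93 ± 0.58). RGF4 (AT3G30350) had its highest mean in the CEI, with samples at 114, 23.9 and 86.4 FPKM (5.46 ± 0.86 against NSCs). It was higher by nearly the same amount in the QC (5.45 ± 0.86), and also in the SCN (4.66 ± 0.80) and CSCs (4.57 ± 0.86). GLV9 (AT5G15725) likewise had its highest mean in the CEI, at 95.2, 8.64 and 66.1 (4.85 ± 0.75). GLV9 was also higher in the SCN (3.95 ± 0.69), CSCs (3.65 ± 0.75) and the QC (2.21 ± 0.75). RGF7 (AT3G02240) went the other way, with 14.9 to 33.9 FPKM in NSCs and each of the 3 QC samples listed at 0. The fourth gene that was higher in the QC, RGF5 (AT5G51451, 3.17 ± 0.85), is named after its value was seen.

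**Figure D4:**
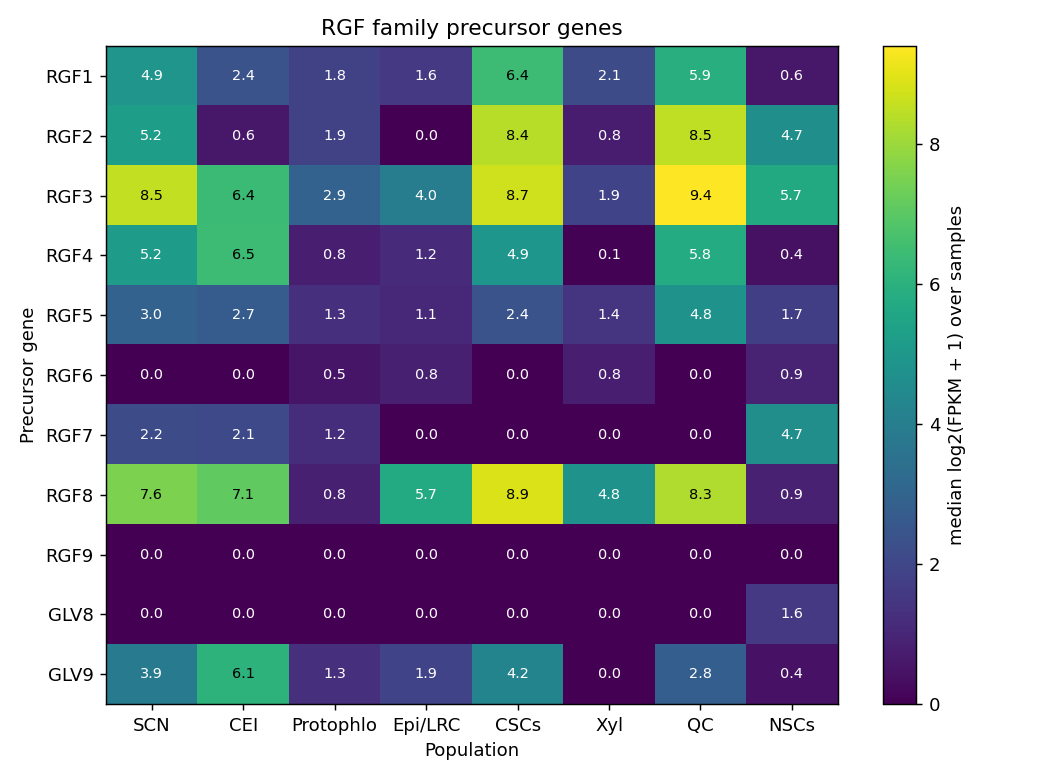
Median log2(FPKM + 1) over the samples of each population for the 11 genes of the RGF family. RGF3 and RGF8 are highest in the QC and CSCs, and RGF7 and GLV8 are highest in NSCs. RGF4 and GLV9 have their highest medians in the CEI, and both were also higher than in NSCs in the SCN, CSCs and the QC.

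Of the other 2 receptors of RGF peptides, AT1G34110 was higher in CSCs (37.2 to 62.3 FPKM against 4.92 to 8.84 in NSCs, 2.72 ± 0.54), the QC (1.84 ± 0.54) and Epi/LRC (1.40 ± 0.54). SKM2 (AT5G56040) was lower in CSCs (0.0161 to 0.0898 FPKM against 4.25 to 9.40, -2.90 ± 0.89). Neither passed in the SCN, CEI, Protophlo or Xyl. The receptors in CSCs therefore moved in both directions, with RGFR2 and AT1G34110 higher and RGFR1 and SKM2 lower. Of the 4 co-receptors, SERK2 (AT1G34210) was higher in CSCs (3.66 ± 0.67), the QC (2.60 ± 0.67) and the SCN (2.04 ± 0.62). SERK1 (AT1G71830) was higher in Xyl (1.85 ± 0.48), and BAK1 (AT4G33430) was lower in CSCs (-1.05 ± 0.34) and Xyl (-1.13 ± 0.32).

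Of 10 genes of the signalling list, 4 were higher and 0 lower in CSCs and in the QC, 3 and 0 in the SCN, 3 and 1 in the CEI and again in Epi/LRC, 2 and 1 in Xyl, and 0 and 3 in Protophlo. Of all tested genes 22.6% were higher and 18.3% lower in CSCs, 9.31% and 9.49% in the QC, and 20.0% and 23.5% in Xyl, where the counts were near these shares. In the other populations the shares were 5.52% and 8.89% (SCN), 5.37% and 5.04% (CEI), 12.5% and 16.6% (Epi/LRC) and 3.51% and 10.5% (Protophlo). PLT1 (AT3G20840) and PLT2 (AT1G51190) are the targets of the pathway. They were higher in CSCs by 6.41 ± 0.64 and 3.92 ± 0.63 and in the QC by 6.31 ± 0.64 and 3.58 ± 0.63. PLT1 was also higher in Xyl (2.20 ± 0.60), the CEI (3.73 ± 0.64), Epi/LRC (2.85 ± 0.64) and the SCN (4.60 ± 0.60). PLT2 was also higher in the CEI (2.33 ± 0.63), SCN (2.25 ± 0.58) and Epi/LRC (1.60 ± 0.63), but did not pass in Xyl. In Protophlo PLT1 did not pass and PLT2 was lower (-1.80 ± 0.58). In Xyl, where PLT1 was called higher, RGF3 and RGFR1 were lower, while RGF1, RGFR2, RGFR3 and RGF8 (3.92 ± 0.53) were higher. In the CEI, where PLT1 was also called higher, no member was called, but RGF8 (5.68 ± 0.58), RGF4 (5.46 ± 0.86) and GLV9 (4.85 ± 0.75) were higher. How the RNA levels of these genes relate to that of PLT1 was not tested. AT2G12646, a gene annotated as a PLATZ transcription factor, was higher in 5 of 7 populations, up to 3.21 ± 0.75 in CSCs. MPK3 (AT3G45640), a MAP kinase, was lower in Xyl by -3.58 ± 0.44. Of the subtilases linked to precursor cleavage, S1P (AT5G19660) was higher in Xyl (2.01 ± 0.53), the QC (1.85 ± 0.58), CSCs (1.63 ± 0.58) and Epi/LRC (1.5 ± 0.58), and TPP2 (AT4G20850) was higher in Epi/LRC (1.04 ± 0.32) and lower in Protophlo (-1.07 ± 0.29).

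Genes of other sulfated peptides and their receptors were examined beside TPST. Of 11 tested genes of this list, 2 were higher and 6 lower in CSCs, 0 and 5 in the QC and in the SCN, 1 and 5 in Epi/LRC, 0 and 3 in Protophlo, 0 and 9 in Xyl, and 0 and 0 in the CEI. Over all tested genes, too, more were lower than higher in each of these populations except CSCs and the CEI (8.89% against 5.52% in the SCN, 10.5% against 3.51% in Protophlo, 16.6% against 12.5% in Epi/LRC, 23.5% against 20.0% in Xyl and 9.49% against 9.31% in the QC). In CSCs 18.3% were lower and 22.6% higher, and in the CEI 5.04% and 5.37%. The median difference of the list was -1.66 in CSCs and -1.41 in the QC, beside 0.08 and 0.12 over the tested genes. The precursor genes of phytosulfokine, a growth peptide, differed in both directions. PSK4 (AT3G49780) was lower by -8.77 ± 1.22 in CSCs, PSK5 (AT5G65870) by -6.24 ± 1.15 in Epi/LRC and PSK2 (AT2G22860) by -6.09 ± 1.21 in Xyl. PSK3 was higher in CSCs (1.99 ± 0.62, adjusted p = 0.0121, limma) and lower in Xyl (-3.50 ± 0.57), and PSK1 was lower in Xyl (-2.33 ± 0.69) and passed in no other population. These latter genes are named after their values were seen. GSO1 (AT4G20140), a receptor for another class of sulfated peptides, was lower by -4.40 ± 0.86 in Epi/LRC.

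The 3 tested genes whose pattern over the 28 samples was most like that of each member, by Pearson's r of log2(FPKM + 1), were as follows. For RGF1 they were AT3G13510 (0.93), WIP4 (0.90), a zinc finger gene, and AT5G44730 (0.89). For RGF2 they were ADF9 (0.94), an actin depolymerizing factor gene, AT1G72490 (0.91) and AT1G17400 (0.90). These genes shared with RGF2 the high value in Epi/LRC replicate 3, where ADF9 was at 2009 FPKM against 0.448 and 6.97 in replicates 1 and 2. For RGF3 they were AT5G59790 (0.90), OEP16-1 (0.88), a plastid envelope protein gene, and AKN2 (0.87), which encodes a kinase that makes the sulfate donor used by sulfotransferases. For TPST they were AT1G22790 (0.93), TRM8 (0.93) and BAM1 (0.89), a receptor kinase gene. RGFR2 was most like AT4G13710 (0.91), AT4G02010 (0.89) and HD1 (0.89), a histone deacetylase gene. RGFR3 was most like EIF3A (0.93), a translation initiation factor gene, AT2G34750 (0.92) and AT3G23940 (0.92). After the overlapping AT4G26542, RGFR1 was most like NLA (0.79) and CKX4 (0.78), a cytokinin oxidase gene, whose r was lower than that of any gene named for another member.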

How the data were processed

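GFP-positive cells of 7 marker lines and GFP-negative cells of AGL42:GFP were profiled in 28 samples. The authors mapped single-end reads, computed FPKM and deposited FPKM for 33201 genes. The submitters' processing notes name TopHat2 2.0.13, Cufflinks 2.1.1 and TAIR10. No counts were used, so depth and its precision are unknown, and the count test of the paper's methods (PoissonSeq) was replaced. RGF1 is among 5998 rows written with more than 6 significant digits, for a reason not given in the sources used here.

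The 22694 genes that reached an FPKM of 1 in 3 or more samples were fitted as log2(FPKM + 1), with 1 coefficient for each population, in limma 3.58.1 (R 4.3.3, trend, Benjamini-Hochberg within each of 22 contrasts). This scale understates changes of low genes. The fit was tested on simulated data. Gene models and sequences came from RefSeq TAIR10.1, where 32489 identifiers have a locus, which does not hold the RGFR names used here. Python 3.11.15, pandas 2.3.3, numpy 2.4.6, scipy 1.17.1 and matplotlib 3.10.9 made tables and figures.

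The members and lists were chosen with earlier results of these data known. Named were the 7 members, per list at most 4 genes past the threshold by absolute log2 fold change, the 3 genes most like each member, and marker genes. An identifier whose annotated name went against the list was left out. Alternatives were a pseudocount of 0.1, no filter, TPM, size factors (10810 genes), 2 populations alone, a replicate block, no trend, an adjusted p under 0.05 and leaving out each sample. No label gives a batch.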

Additional observations from a re-analysis of the deposited data

Results flagged for a closer look

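Among 28 sets of 4 samples (7 members in SCN, Protophlo, Xyl and NSCs), 2 held a sample far from the others in FPKM. If values are normally distributed, chance gives about 1 in 20 such sets. In both sets the far sample was Xyl replicate 4. There RGF2 was at 32.8 FPKM against 0.124 to 0.852 in the other Xyl samples, and RGF3 at 46.4 FPKM against 0.193 to 3.13. The gap was 0.978 and 0.936 of the range, above the critical value of 0.829. FPKM values need not be normally distributed, and the rule was not applied on the log2 scale of the fit. RGF2 and RGF3 also varied together (Pearson's r of 0.82 over the 28 samples), so the 2 sets are not independent.

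RGF3 was also picked out because its calls against NSCs were in opposite directions in different populations, higher in CSCs and the QC and lower in Xyl. That choice was made on the same samples and largely fixes the sign of the differences, whose limma values are therefore a description and no further evidence. They came to 6.34 ± 1.14 for CSCs minus Xyl (log2, SE) and -7.31 ± 1.14 for Xyl minus QC, with each CSCs and QC sample above every Xyl sample.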

How the results depend on the processing

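Of the 16 calls, 8 stood in all 8 other settings and all 28 fits without 1 sample (RGF1 in the SCN, CSCs and QC, TPST in CSCs and the QC, RGFR1 in CSCs, RGFR2 and RGFR3 in Xyl). Of the 21 counts of calls in 8 settings, 151 of 168 stayed within 1.5 times. Fitted with NSCs or the other type alone, members higher in the SCN were 2, lower in the CEI 1, lower in Protophlo 2 and lower in Epi/LRC 1, and pairs with RGFR2 5 and with RGFR3 1 of 15. Members higher in Epi/LRC were 1 with a pseudocount of 0.1, no filter, size factors, the replicate block or an adjusted p under 0.05. With size factors 1 was lower in Epi/LRC and 2 were higher in CSCs, and RGFR1 differed in 1 pair. With a pseudocount of 0.1, 1 was lower in Xyl and RGFR1 differed in 1 pair. With the replicate block RGF3 differed in 9 pairs, RGF2 passed in CSCs (adjusted p = 0.0304), and RGF1 in Xyl (0.0693) and RGFR3 in Epi/LRC (0.0971) were lost. Same-numbered samples correlated by -0.18 to 0.13 over 24 pairs with NSCs, 5 of them above 0.1, so no population met the rule for pairing, in which each of its pairs exceeds 0.1. SCN and NSCs come from the same line and may share sorts, which no label states, and their 4 pairs gave -0.012, 0.116, 0.056 and 0.114.

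Leaving out 1 sample, members higher ranged from 1 to 2 in the SCN, 0 to 2 in Epi/LRC, 2 to 5 in CSCs, 2 to 3 in Xyl and the QC and stayed at 0 in the CEI and Protophlo. Members lower ranged from 0 to 1 in Protophlo and Epi/LRC and 1 to 2 in Xyl, and stayed at 1 in CSCs and 0 in the SCN, CEI and QC. Pairs ranged from 8 to 8 for RGF1, 4 to 8 for RGF2 and RGF3, 0 to 2 for RGFR1, 6 to 8 for RGFR2, 4 to 5 for RGFR3 and 5 to 8 for TPST. RGF3 differed in 8 pairs without Protophlo replicate 4, Epi/LRC replicate 3 or Xyl replicate 4, and RGFR1 in 2 without QC replicate 2 and in 1 without Protophlo replicate 4 or CSCs replicate 2. Members higher in Epi/LRC fell to 0 without Epi/LRC replicate 2 or NSCs replicate 4, and in CSCs to 2 without CSCs replicate 3 or NSCs replicate 4.

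Uncalled log2 differences from NSCs that changed sign were RGF3 in Epi/LRC (0.35 with the replicate block, -1.82 to 0.68 leaving out 1 sample), RGFR2 in the SCN (-0.10 with size factors, -0.17 to 0.43), TPST in the CEI (-0.0019 with a pseudocount of 0.1, -0.086 with size factors, -0.31 to 0.38), RGF2 in the SCN (-0.94 to 1.34), RGFR1 in the QC (-1.30 to 0.15, positive without QC replicate 2) and TPST in Protophlo (-0.63 to 0.032). Size factors moved the median of the tested genes by -0.30 in CSCs, -0.22 in the QC, -0.14 in Epi/LRC, -0.11 in the SCN and Xyl and 0.10 in Protophlo, and the share of higher among called genes from 55.2% to 38.1% in CSCs, 49.5% to 29.7% in the QC and 25.1% to 35.8% in Protophlo. Over the tested genes, a pseudocount of 0.1 took those higher in the CEI from 1219 to 795, lower in the CEI from 1144 to 606 and higher in Protophlo from 797 to 461, size factors took those higher in Protophlo to 1262, in CSCs from 5122 to 3266 and in the QC from 2113 to 1223, and fits with NSCs alone took those higher in Protophlo to 1329 and in the QC to 3227. The cause of these changes was not tested.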
